A study of Mus musculus with 29 samples.

Results

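Collagen chains are hydroxylated and folded inside the cell and trimmed as or after they leave it, and 10 genes of these steps were followed here in the aortic arch of DNA repair-deficient Ercc1Δ/- mice and their wildtype (WT) littermates. They are the prolyl 4-hydroxylase subunits P4ha1, P4ha2 and P4ha3, the prolyl 3-hydroxylase P3h1, the lysyl hydroxylases Plod1, Plod2 and Plod3, the chaperone Serpinh1, the proteinase Bmp1 and its enhancer Pcolce. The genes were listed by name for their roles in collagen folding and processing and matched by symbol to the Ensembl identifiers, and all 10 were found among the 56748 genes that were counted. Of these 10, 9 had enough counts to be tested, as did 12353 genes in all, while P4ha3 had too few counts.

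Bulk RNA was sequenced as 1 library per mouse, in 6 groups of F1 hybrid C57BL6J/FVB mice, to follow vascular aging and the response to diet. Ercc1Δ/- mice carry 1 null and 1 hypomorphic allele of Ercc1, a subunit of a DNA repair endonuclease, in every cell of the body, so effects within the aortic wall and effects from other organs cannot be told apart. WT mice (Ercc1+/+) with food ad libitum (AL) gave 5 samples at 6 weeks and 4 at 22 weeks, and WT mice on dietary restriction (DR) gave 5 at 22 weeks. Ercc1Δ/- mice gave 5 AL samples at 6 weeks, 4 AL samples at 22 weeks and 5 DR samples at 22 weeks. Each group held 3 males and 2 females, except those of 22 weeks on AL. These were 3 males and 1 female in WT mice and 2 males and 2 females in Ercc1Δ/- mice. All mice were housed singly on AIN93G pellets. DR began at 7 weeks of age with 10% less food and reached a reduction of 30% by 9 weeks. A further WT sample of 22 weeks on AL, number 003, which the authors left out for few reads and an outlying profile, was left out here too.

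The triple helix of a collagen is stable at body temperature only when prolines in its chains have been converted to 4-hydroxyproline in the endoplasmic reticulum. The prolyl and lysyl hydroxylases of collagen need iron, oxygen, 2-oxoglutarate and ascorbate. Hydroxylysine anchors sugars and later forms part of the crosslinks between collagen molecules. The chaperone HSP47, the product of Serpinh1, binds the folded triple helix and travels with it toward the Golgi, and outside the cell the propeptides are cut from both ends so that fibrils can form. In the arterial wall, smooth muscle cells and fibroblasts make most of the fibrillar collagen.

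Between 921167 and 9616382 counts fell on genes in a sample, and the 4 Ercc1Δ/- samples of 22 weeks on AL held 1294980 to 3855444 counts, all below the 3903589 or more of the 4 WT samples of the same age and diet. Totals were also separate on DR, at 921167 to 2572523 in the 5 Ercc1Δ/- and 2660422 to 6124471 in the 5 WT samples. Levels are given as normalized counts, the counts that a sample would have at the mean library size of 3703241. Ercc1 itself had 28.2 to 78.7 normalized counts in the 14 Ercc1Δ/- samples and 52.2 to 136 in the 14 WT samples, and these ranges overlapped only through WT sample 011 of 6 weeks. It was lower in Ercc1Δ/- mice in each of the 3 genotype comparisons, with log2 fold changes of -1.41 at 6 weeks, -0.97 at 22 weeks on AL and -1.01 on DR. The tissue label held for smooth muscle genes, whose 8 listed markers summed to 65760 normalized counts or more in every sample, while the 6 T cell markers summed to at most 36.2. In bulk RNA, fewer cells of a type and less RNA per cell cannot be told apart. Among the WT samples on DR, number 021 had the lowest value of its group for 9 of the 9 tested members, at a total of 3140949 counts, and the calls and ranges of comparisons with this group are therefore also given without it.

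Per kilobase of exon, Serpinh1 had the highest level of the 10 members and P4ha3 the lowest. Serpinh1 averaged 113.6 ± 37.1 CPM (counts scaled to a common library total) per kb over all exons of the gene (SD, n = 28). Pcolce followed at 43.0 ± 10.4 CPM per kb, and in these means both stood apart from the rest. Within WT mice at 22 weeks P4ha1 came close to Pcolce, at 32.45 ± 7.32 against 33.1 ± 3.08 on DR and 35.6 ± 10.0 against 43.4 ± 4.80 on AL. Bmp1 at 25.4 ± 5.19, P4ha1 at 24.5 ± 8.90, Plod3 at 21.1 ± 2.49 and Plod2 at 17.9 ± 3.93 CPM per kb each differed from the next by less than the larger of their SDs. The same held for P4ha2 at 12.3 ± 2.72, Plod1 at 12.1 ± 1.84 and P3h1 at 11.0 ± 2.21 CPM per kb. P4ha3 stood at 0.225 ± 0.163 CPM per kb, from 0 to 8 raw counts in a sample. Many exons of these genes belong to minor transcripts, and with the length of the canonical transcript in their place P4ha2 moved up to 47.1 ± 10.4 CPM per kb, next to P4ha1 at 52.6 ± 19.1, while the first 4 places and the last were held by the same genes.

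**Figure D1:**
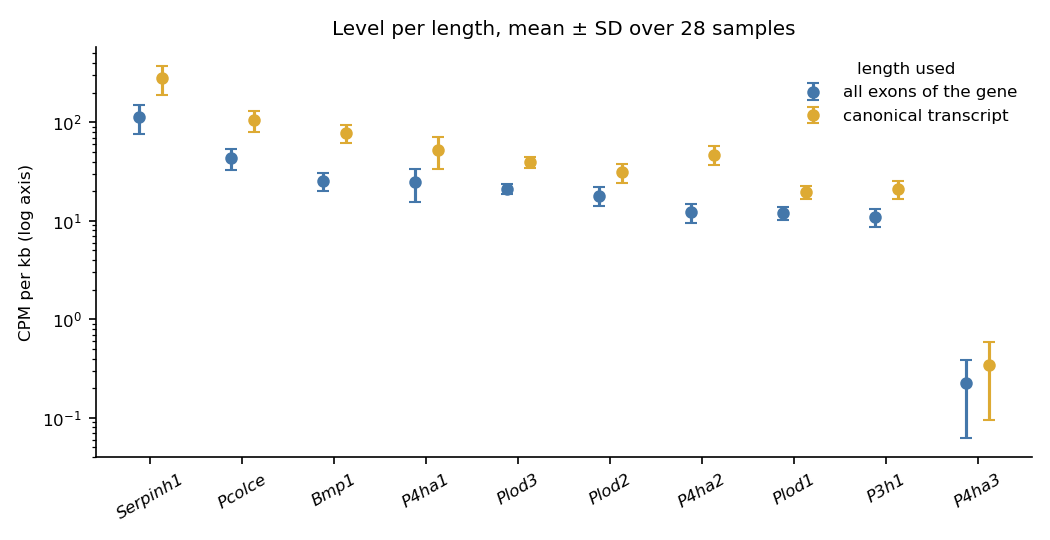
Levels of the 10 members in CPM per kilobase on a log axis, as mean ± SD over 28 samples, with the length of all exons of the gene in blue and of the canonical transcript in yellow. Serpinh1 lies highest at 113.6 CPM per kb over all exons and P4ha3 lowest at 0.225.

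Over the set, calls were all toward lower values. A gene was called when its Benjamini-Hochberg adjusted p was at most 0.05 and it changed at least 1.2-fold. Between genotypes, 3 of 9 members were called lower at 22 weeks on AL (12% of all tested genes were called, 6.16% lower), 5 of 9 on DR (13% of all, 7.03% lower, and the same 5 without sample 021) and 0 of 9 at 6 weeks with edgeR and with DESeq2 (1.7% of all with edgeR), where 3 of 9 had an unadjusted p under 0.05. With age, 4 of 9 were called lower in Ercc1Δ/- mice (4.69% of all, 2.57% lower) and 0 of 9 in WT mice (0.235% of all), where 3 of 9 had an unadjusted edgeR p under 0.05 and DESeq2 called 2. With DR, 1 of 9 was called lower in WT mice (1.28% of all, 0.939% lower) and 0 without sample 021, and 1 of 9 in Ercc1Δ/- mice (1.64% of all, 0.988% lower), and 0 of 9 passed the genotype by diet interaction with edgeR (0.0971% of all) or with DESeq2, with 0 at an unadjusted p under 0.05. The median log2 fold change of the 9 members was -0.15 between genotypes at 22 weeks on AL, -0.34 on DR and -0.28 with age in Ercc1Δ/- mice, beside medians of 0.027, 0.0039 and 0.0074 over all tested genes. It was -0.19 with age in WT mice (6 of 9 with negative values), -0.19 with DR in Ercc1Δ/- mice (9 of 9), -0.074 with DR in WT mice (8 of 9) and -0.029 between genotypes at 6 weeks (6 of 9). The age and the genotype comparisons on AL share samples, as do those of diet and of genotype on DR, so their calls are not separate evidence.

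Counted by ranges, 4 of 9 members lay lower without overlap in Ercc1Δ/- mice at 22 weeks on AL, where 18.6% of all tested genes did not overlap, and 3 of 9 did so on DR (8.27% of all) and 1 of 9 at 6 weeks (2.87% of all). With age this held for 4 of 9 in Ercc1Δ/- mice (6.78% of all) and 1 of 9 in WT mice (3.85% of all). With DR, 2 of 9 lay lower without overlap in WT mice, Pcolce and P3h1 (5.14% of all), and 2 of 9 in Ercc1Δ/- mice, Pcolce and Plod2 (5.02% of all). The shares of all genes in this paragraph count both directions. Of the 12353 tested genes, 1187 lay lower without overlap between genotypes at 22 weeks on AL, 642 on DR and 223 at 6 weeks. With age these were 417 in Ercc1Δ/- and 260 in WT mice, and with DR 331 in WT and 373 in Ercc1Δ/- mice. Without sample 021 the count on DR between genotypes was 6 of 9, as P3h1, Plod1 and Plod2 joined P4ha1, P4ha2 and Serpinh1 (12% of all), and Pcolce and P3h1 were again the 2 with DR in WT mice (7.39% of all).

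**Figure D2:**
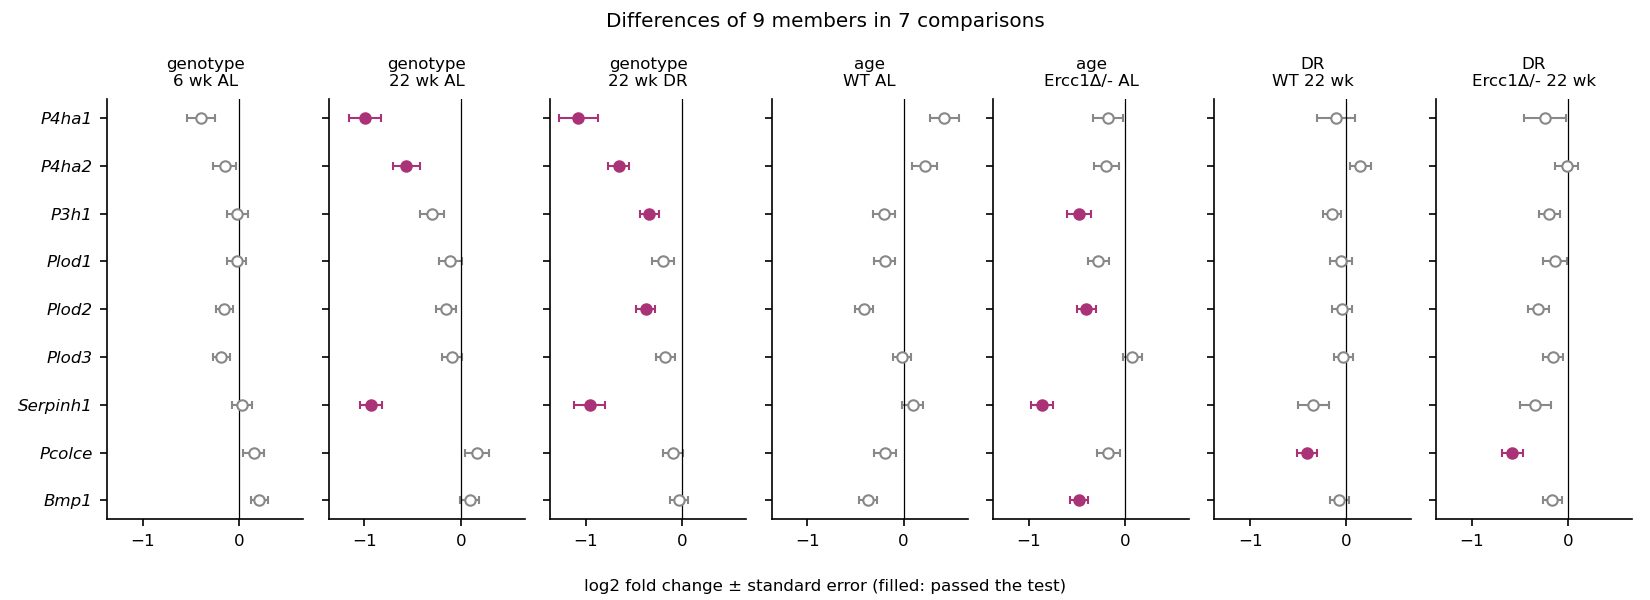
Log2 fold change ± SE of the 9 tested members in 7 comparisons, as Ercc1Δ/- against WT (genotype), 22 against 6 weeks (age) and DR against AL. Filled symbols passed the test, and all of them lie below 0, with P4ha1 and Serpinh1 near -1 between genotypes at 22 weeks.

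P4ha1, P4ha2 and Serpinh1 were the members that passed the test between genotypes at 22 weeks on both diets, and their RefSeq promoter windows, 250 bases before to 50 bases after the annotated start, are shown for that reason. Capitals mark ACGTG or its reverse complement on the strand printed, a short motif that forms the core of hypoxia response elements and is also contained in the E-box CACGTG. The windows lie on GRCm39 at chr10:59158868-59159167 (plus strand) for P4ha1, chr11:53991500-53991799 (plus strand) for P4ha2 and chr7:99002397-99002696 (minus strand) for Serpinh1, placed there by exact match. The windows of P4ha2 and Serpinh1 lie inside the annotated span of their genes.
P4ha1: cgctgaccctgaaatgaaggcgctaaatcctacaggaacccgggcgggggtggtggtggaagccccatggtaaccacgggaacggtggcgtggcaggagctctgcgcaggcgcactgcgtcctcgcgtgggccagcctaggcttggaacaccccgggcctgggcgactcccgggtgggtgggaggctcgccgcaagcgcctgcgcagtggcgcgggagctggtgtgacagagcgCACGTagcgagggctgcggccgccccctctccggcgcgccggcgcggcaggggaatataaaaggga
P4ha2: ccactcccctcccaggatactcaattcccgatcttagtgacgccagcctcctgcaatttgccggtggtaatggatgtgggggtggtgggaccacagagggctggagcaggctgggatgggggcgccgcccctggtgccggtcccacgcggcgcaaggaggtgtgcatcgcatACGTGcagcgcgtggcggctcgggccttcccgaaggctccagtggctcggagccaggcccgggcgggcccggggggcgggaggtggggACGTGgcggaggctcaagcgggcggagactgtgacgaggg
Serpinh1: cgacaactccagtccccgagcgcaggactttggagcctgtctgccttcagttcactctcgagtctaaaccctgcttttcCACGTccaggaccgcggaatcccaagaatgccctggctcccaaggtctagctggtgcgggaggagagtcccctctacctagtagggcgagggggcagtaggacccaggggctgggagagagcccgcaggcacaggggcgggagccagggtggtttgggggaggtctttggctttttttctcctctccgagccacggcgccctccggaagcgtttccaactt

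The P4ha1 window held ACGTG 1 time, the P4ha2 window 2 times and the Serpinh1 window 1 time. RefSeq windows were at hand for 8 of the 10 members, all but Plod2 and Bmp1. Of these 8, 5 held the motif, the other 2 being Plod3 and P3h1, in comparison with 19.6% of the 32851 windows of the mouse table. P3h1 alone had 2 windows, for 9 in all, and held ACGTG only in the second. The share of members is thus not quite the same measure as the share of windows. The CCAAT box was found in 2 members, Plod3 and P3h1 (37.4% of all windows), and GAANNTTC, a core of heat shock elements, in 1 member, Plod1 (7.86% of all windows). The CArG box of smooth muscle genes was found in 0 of the 8 members and in 1.63% of all windows. A match describes the letters only.

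P4ha1 encodes the main catalytic subunit of collagen prolyl 4-hydroxylase and lies at chr10:59159092-59209126 (plus strand, GRCm39). At 22 weeks on AL the 4 WT samples had 588, 712, 1056 and 1057 normalized counts and the 4 Ercc1Δ/- samples had 366, 437, 449 and 459. No Ercc1Δ/- sample reached the lowest WT sample, and P4ha1 averaged 428 ± 42.3 in Ercc1Δ/- against 853 ± 239.8 in WT mice (SD, n = 4 each), a log2 fold change of -0.99 (SE 0.17, edgeR adjusted p = 4.1e-04). On DR the 5 WT samples had 481, 811, 820, 833 and 949 normalized counts and the 5 Ercc1Δ/- samples had 287, 337, 341, 420 and 456. The groups again did not overlap, with a log2 fold change of -1.08 (SE 0.20, edgeR adjusted p = 0.0021), and of -1.21 without sample 021. At 6 weeks the WT samples had 557, 611, 618, 687 and 725 and the Ercc1Δ/- samples 388, 460, 480, 526 and 551 normalized counts. These groups did not overlap either, but the log2 fold change of -0.40 (SE 0.14) did not pass the test (edgeR adjusted p = 0.20). The change with age did not pass in WT mice (log2 fold change 0.42, SE 0.15, edgeR adjusted p = 0.38) or in Ercc1Δ/- mice (-0.17, SE 0.16, edgeR adjusted p = 0.63), and the genotype by age interaction of -0.59 (SE 0.22) had an edgeR adjusted p of 0.27. Both the WT change with age (0.63, edgeR adjusted p = 0.048) and the interaction passed when WT sample 018 of 22 weeks, the lowest of its group, was left out. Sample 018 was also the only female of that group, so its low value and its sex cannot be told apart.

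P4ha2, at chr11:53981553-54022494 (plus strand, GRCm39), encodes the second catalytic subunit of the same enzyme and was called lower in the same comparisons. At 22 weeks on AL the WT samples had 393, 399.8, 515 and 556 normalized counts and the Ercc1Δ/- samples 312, 316, 326 and 328. The Ercc1Δ/- samples lay close together and below every WT sample, with a log2 fold change of -0.56 (SE 0.14, edgeR adjusted p = 0.0091). This call was lost when sample 003 was added (edgeR adjusted p = 0.070) and when all samples were thinned to the lowest total (edgeR adjusted p = 0.10). On DR the WT samples had 401, 526, 532, 535 and 544 and the Ercc1Δ/- samples 268, 297, 299, 346 and 386 normalized counts. The groups did not overlap, with a log2 fold change of -0.66 (SE 0.11, edgeR adjusted p = 1.8e-04), and of -0.71 without sample 021. At 6 weeks the WT samples had 319, 379, 408, 414 and 505 and the Ercc1Δ/- samples 325, 328, 344, 394 and 423 normalized counts, with overlapping ranges and a log2 fold change of -0.15 (SE 0.12, edgeR adjusted p = 0.68).

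P4ha3, the third catalytic subunit, had 0 to 4 raw counts in the Ercc1Δ/- samples and 0 to 8 in the WT samples, which is too few to compare groups. By counts per length, P4ha1 made up 70.5% ± 2.93 (SD, n = 4) of the P4ha transcripts in WT mice at 22 weeks on AL and 63.3% ± 3.02 (SD, n = 4) in Ercc1Δ/- mice, and P4ha2 29.2% ± 2.75 and 35.4% ± 2.55 of them. With canonical lengths the P4ha1 shares were 57.5% ± 3.34 and 49.7% ± 3.06, so the split depends on the length used while its difference between these groups has the same sign. On DR the P4ha1 share was 66.6% ± 3.28 in WT and 60.3% ± 6.08 (SD, n = 5 each) in Ercc1Δ/- mice. The shares were not tested.

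P3h1, at chr4:119089974-119106174 (plus strand, GRCm39), hydroxylates single prolines at the 3 position in a complex with Crtap and cyclophilin B. In Ercc1Δ/- mice on AL it had 249.7, 292, 298, 313 and 328 normalized counts at 6 weeks and 181, 206, 231 and 237 at 22 weeks. The 22-week samples lay below all 6-week samples, and P3h1 fell with a log2 fold change of -0.48 (SE 0.12, edgeR adjusted p = 0.024). In WT mice the change with age was -0.20 (SE 0.12, edgeR adjusted p = 0.68), with 209 to 349.9 normalized counts at 6 weeks and 261 to 267 at 22 weeks. At 22 weeks on DR the WT samples had 193, 234, 248, 250.5 and 258 and the Ercc1Δ/- samples 174, 176, 183, 201 and 209 normalized counts. These ranges overlapped only through WT sample 021, the lowest of the WT group, and P3h1 passed with a log2 fold change of -0.34 (SE 0.10, edgeR adjusted p = 0.026), and -0.39 without sample 021. Between genotypes on AL at 22 weeks the log2 fold change of -0.30 (SE 0.13) did not pass (edgeR adjusted p = 0.14), although the ranges did not overlap. Both P3h1 calls were lost with sample 003 added and with thinned counts, the one with age also without 4 of its 9 samples and the one on DR without 7 of its 10. P3h1 shares 654 bases of exon with AU022252 on the opposite strand.

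Lysyl hydroxylases act on different parts of the collagen chain, and of their 3 genes Plod2 was the one with calls. Plod2, at chr9:92424119-92490494 (plus strand, GRCm39), hydroxylates the telopeptide lysines that enter stable crosslinks. In Ercc1Δ/- mice on AL it had 405, 492, 509.8, 512 and 558 normalized counts at 6 weeks and 353, 363, 372 and 435 at 22 weeks. Apart from the highest 22-week and the lowest 6-week sample, the ages were separate, with a log2 fold change of -0.40 (SE 0.10, edgeR adjusted p = 0.015). In WT mice it had 497 to 598 normalized counts at 6 weeks and 394 to 427 at 22 weeks. Here the ages did not overlap, and the log2 fold change was again -0.41 (SE 0.09), but its edgeR adjusted p was 0.072, and of the 7 alternatives it passed with DESeq2 (adjusted p = 0.0024). The genotype by age interaction of Plod2 was 0.01 (SE 0.14, edgeR adjusted p = 0.99), so a difference between the genotypes in this change was not detected. On DR, Ercc1Δ/- samples had 263, 276, 287, 348 and 353 normalized counts and WT samples 349.9, 370.3, 396, 404 and 477. Only WT sample 021, the lowest of its group, lay below an Ercc1Δ/- sample, and the log2 fold change of -0.38 (SE 0.10) passed (edgeR adjusted p = 0.012), and was -0.41 without sample 021. Plod2 lost both calls with sample 003 added, where its value of 818 normalized counts was the highest of all samples, and with thinned counts, the call with age also without each of 2 samples and the call on DR without 1.

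Plod1, at chr4:147991574-148021356 (minus strand, GRCm39), acts on lysines of the triple helix, and Plod3, at chr5:137015827-137025502 (plus strand, GRCm39), also adds sugars to hydroxylysine. Plod1 ranged from 322 to 560.5 and Plod3 from 364 to 578 normalized counts over the 28 samples. Neither gene passed the test in any of the 7 comparisons of 2 groups or in the 2 interactions. In the 7 comparisons of 2 groups their log2 fold changes lay between -0.28 (Plod1 with age in Ercc1Δ/- mice, SE 0.11, edgeR adjusted p = 0.18) and 0.08 (Plod3 in the same comparison, SE 0.10, edgeR adjusted p = 0.76). By counts per length, Plod2 held 39.0% ± 2.16 of the Plod transcripts in WT mice at 6 weeks and 33.5% ± 2.31 at 22 weeks, and 38.5% ± 4.25 and 33.2% ± 0.73 in Ercc1Δ/- mice. The share of Plod3 was higher at 22 weeks, at 43.0% ± 2.18 in WT and 43.8% ± 0.60 in Ercc1Δ/- mice against 38.0% ± 1.64 and 36.6% ± 2.39 at 6 weeks, while that of Plod1 stayed within 23.03% to 24.9% in these 4 groups. Exons of Plod3 overlap Znhit1 on the opposite strand over 575 bases and Mir702 on the same strand over 9, and those of Plod2 overlap B430319G15Rik on the opposite strand over 503.

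Serpinh1, at chr7:98994220-99005076 (minus strand, GRCm39), had the largest number of counts of the set and differed between genotypes at 22 weeks but not detectably at 6 weeks. At 6 weeks WT samples had 3160.4, 3325, 3535, 3785 and 4083 normalized counts and Ercc1Δ/- samples 2976, 3594, 3659, 3801 and 4109. These groups overlapped over nearly their whole range, with a log2 fold change of 0.02 (SE 0.10, edgeR adjusted p = 0.95). At 22 weeks on AL the WT samples had 3349, 3546, 3842 and 4765 normalized counts and the Ercc1Δ/- samples 1817, 1903, 1975 and 2276. The highest Ercc1Δ/- sample lay far below the lowest WT sample, and Serpinh1 averaged 1993 ± 199.6 in Ercc1Δ/- against 3876 ± 627 in WT mice (SD, n = 4 each), a log2 fold change of -0.93 (SE 0.12, edgeR adjusted p = 1.96e-05). On DR the WT samples had 2137, 3131, 3196, 3318 and 3492 and the Ercc1Δ/- samples 1238, 1296, 1432, 1829.5 and 2039.5 normalized counts. The groups did not overlap, with a log2 fold change of -0.96 (SE 0.16, edgeR adjusted p = 4.9e-04), and of -1.08 without sample 021.

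With age, Serpinh1 fell in Ercc1Δ/- mice on AL (log2 fold change -0.86, SE 0.11, edgeR adjusted p = 3.1e-05) and not detectably in WT mice (0.10, SE 0.11, edgeR adjusted p = 0.90). The difference between these changes was tested as the genotype by age interaction, which was -0.95 (SE 0.16, edgeR adjusted p = 0.0040). Serpinh1 was the 1 member of 9 that passed this test, which 0.842% of all tested genes passed, and the interaction stayed called under each of the 7 alternatives and without each of the 18 AL samples in turn. DR gave log2 fold changes of -0.34 in WT (SE 0.16, edgeR adjusted p = 0.38, and -0.25 without sample 021) and -0.34 in Ercc1Δ/- mice (SE 0.16, edgeR adjusted p = 0.35), neither of which passed.

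**Figure D3:**
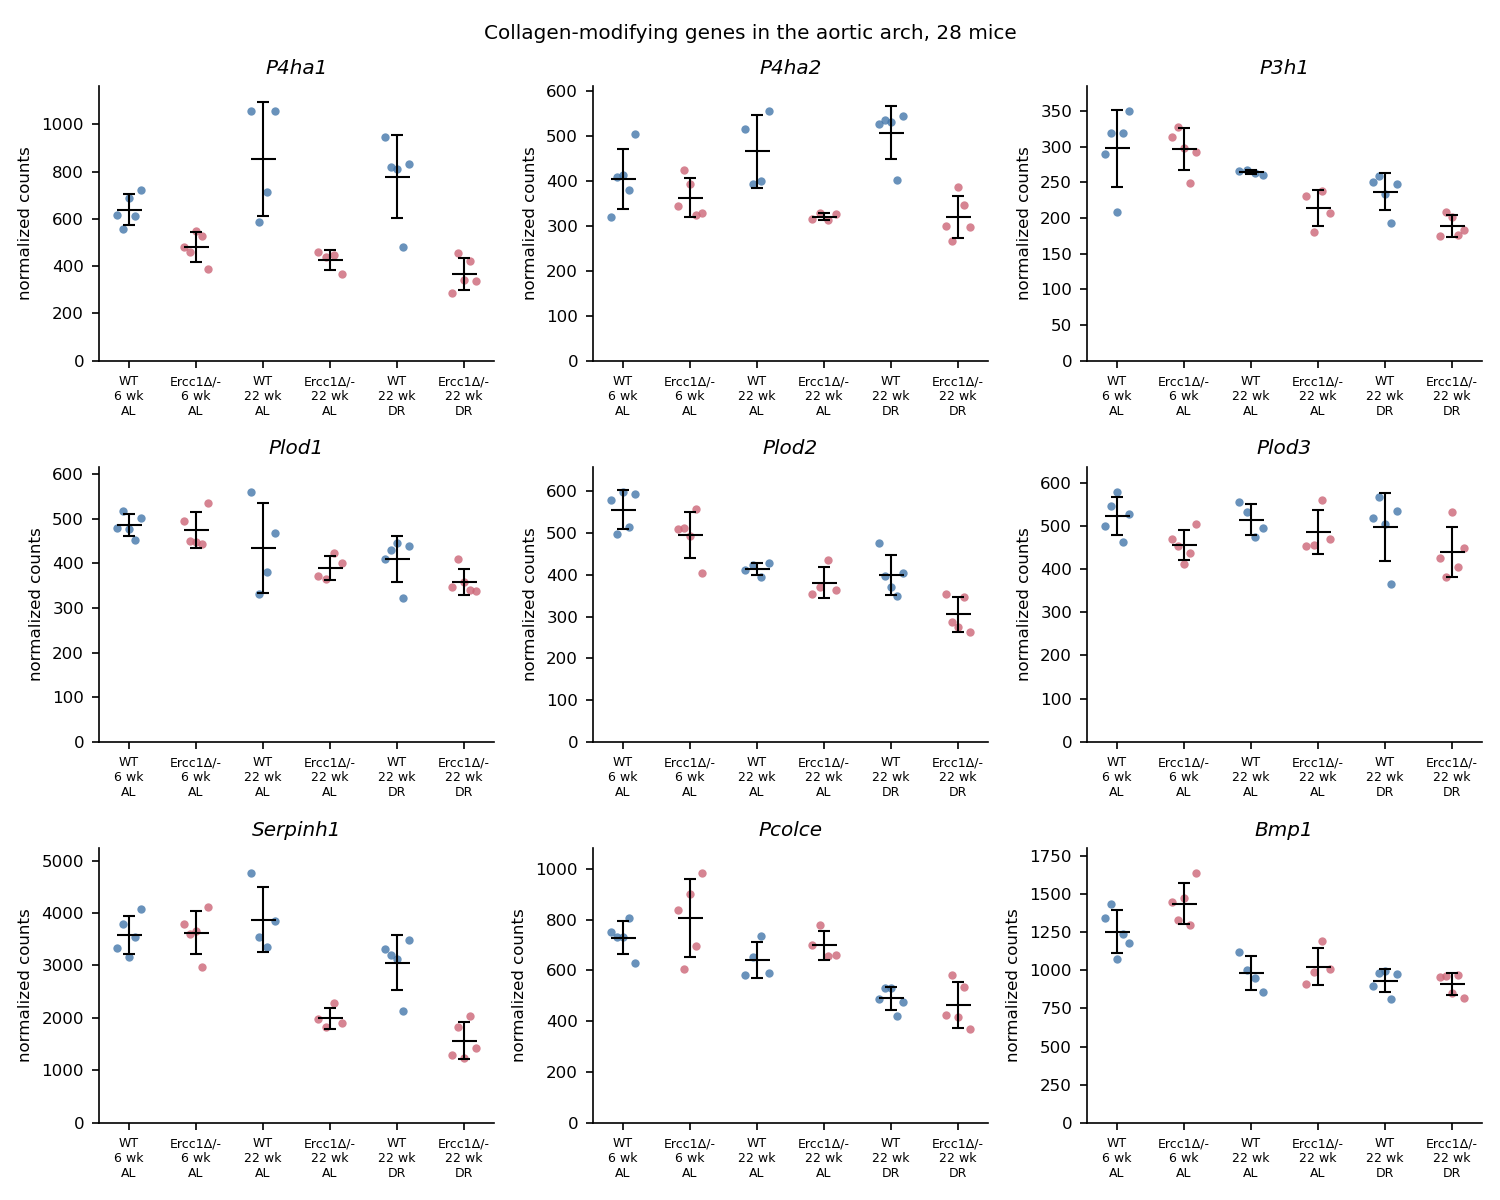
Normalized counts of the 9 tested members in each of 28 samples (points, WT in blue and Ercc1Δ/- in red) with the mean and SD of each group (bars). For Serpinh1 the Ercc1Δ/- samples of 22 weeks lie at 1238 to 2276 and the WT samples of that age at 2137 to 4765, with sample 021 as the lowest WT sample.

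Bmp1, at chr14:70711689-70758178 (minus strand, GRCm39), encodes the proteinase that removes the C-terminal propeptide of fibrillar procollagens. In Ercc1Δ/- mice on AL it had 1294.5, 1331, 1447, 1476 and 1639 normalized counts at 6 weeks and 909, 990.5, 1007.5 and 1191 at 22 weeks. All 22-week samples were lower, with a log2 fold change of -0.48 (SE 0.10, edgeR adjusted p = 0.0034). In WT mice it had 1072, 1181, 1235.5, 1345.5 and 1432 normalized counts at 6 weeks and 856, 952, 1002 and 1123 at 22 weeks. The WT ages overlapped in 1 sample each, and the log2 fold change of -0.37 (SE 0.09) did not pass with edgeR (adjusted p = 0.10) but did with DESeq2 (adjusted p = 0.015). The genotype by age interaction of -0.11 (SE 0.13, edgeR adjusted p = 0.81) did not pass. Bmp1 did not differ detectably between genotypes at either age or on DR, with log2 fold changes of -0.04 to 0.21. Exons of Bmp1 overlap Gm52136, a noncoding gene of the opposite strand that was not counted, over 153 bases.

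Pcolce, at chr5:137603365-137612046 (minus strand, GRCm39), binds the C-terminal propeptide and raises the activity of the Bmp1 proteinase. Its calls were between diets, and it was the 1 member called with DR. In Ercc1Δ/- mice of 22 weeks it had 656, 662, 699 and 779 normalized counts on AL and 368, 415, 423, 536 and 582 on DR. No DR sample reached the lowest AL sample, with a log2 fold change of -0.58 (SE 0.11, edgeR adjusted p = 0.0081). In WT mice it had 583, 591, 654 and 736 normalized counts on AL and 422, 475, 488, 530.4 and 532 on DR. The diets again did not overlap, with a log2 fold change of -0.41 (SE 0.10, edgeR adjusted p = 0.045). The WT call was lost without 7 of its 9 samples, sample 021 among them (log2 fold change -0.35, edgeR adjusted p = 0.11), whereas the Ercc1Δ/- call was kept without each of its 9 samples. The genotype by diet interaction of -0.17 (SE 0.15, edgeR adjusted p = 0.82) did not pass. Pcolce shares 112 bases of exon with Fbxo24 on the same strand and 112 with Gm36266 on the opposite strand.

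The fibrillar collagens are the substrates of these enzymes, and their summed counts were lower at 22 weeks on AL than at 6 weeks in both genotypes. Summed over 11 fibrillar collagen genes, normalized counts ran from 61273 to 92041 in WT mice at 6 weeks and from 38388 to 52193 at 22 weeks on AL, and from 72074 to 140730 and 24644 to 30800 in Ercc1Δ/- mice. The ages were separate in both genotypes. For each genotype 7 of 8 tested collagens had negative values with age and 1 a positive value. Of the 8, 3 were called lower with age in WT mice (Col1a2, Col3a1 and Col5a2, log2 fold changes -0.65, -0.97 and -0.68) and 5 in Ercc1Δ/- mice, led by Col3a1 (-2.25, SE 0.18, edgeR adjusted p = 1.2e-07) and Col1a1 (-1.84, SE 0.19, edgeR adjusted p = 4.7e-06), with Col1a2 at -1.53, Col5a2 at -0.99 and Col5a1 at -0.96. Between genotypes at 22 weeks on AL, 4 of 8 were called lower, Col1a1, Col1a2, Col3a1 and Col5a1, with log2 fold changes of -0.47 to -0.67. On DR, Col1a1 (-0.45) and Col1a2 (-0.46) were called lower and Col5a3 higher (0.82), and at 6 weeks Col27a1 was higher (0.64). DR lowered 3 of 8 in WT mice (Col1a1 -0.70, Col1a2 -0.40 and Col3a1 -0.71), of which Col1a1 alone was called without sample 021, and edgeR and DESeq2 called 0 of 8 in Ercc1Δ/- mice, with 1 at an unadjusted edgeR p under 0.05. The median over the 8 collagens was -0.56 with age in WT mice and -0.98 in Ercc1Δ/- mice, beside -0.00084 and 0.0074 over all tested genes. The genotype by age interaction passed for Col1a2 (-0.88) and Col3a1 (-1.28) with edgeR, where 5 of the 8 had an unadjusted p under 0.05 and DESeq2 called 4.

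Serpinh1 was therefore also set against its substrate in each sample, as Serpinh1 counts per 1000 counts of the 11 fibrillar collagens. WT samples had ratios of 36.1, 45.8, 47.9, 51.6 and 58.4 at 6 weeks and of 67.9, 72.2, 100.1 and 109.9 at 22 weeks on AL. Ercc1Δ/- samples had 29.2, 38.2, 38.2, 39.2 and 41.3 at 6 weeks and 59.0, 62.15, 75.9 and 80.15 at 22 weeks on AL. In both genotypes the ratio was higher in every 22-week sample than in any 6-week sample, with geometric means of 85.7 against 47.4 in WT and 68.7 against 37.0 in Ercc1Δ/- mice (exact permutation tests on log2 ratios, two-sided, p = 0.0159 each, the smallest that 4 against 5 samples allow, adjusted p = 0.037 over 7 comparisons). Thus Serpinh1 counts fell by less than collagen counts in Ercc1Δ/- mice, and in WT mice collagen counts fell while Serpinh1 did not detectably change.

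Between genotypes the ratio differed on DR, with 53.9, 60.8, 61.8, 62.4 and 66.4 in Ercc1Δ/- samples and 71.2, 92.3, 95.85, 105.1 and 105.7 in WT samples (log2 difference -0.61, two-sided exact permutation test, p = 0.0079, the smallest that 5 against 5 samples allow, adjusted p = 0.037). Every Ercc1Δ/- sample lay below every WT sample, also without sample 021, where the log2 difference was -0.71. At 22 weeks on AL the log2 difference of -0.32 (exact permutation test, p = 0.20, adjusted p = 0.24), which was -0.20 without WT sample 012, and at 6 weeks that of -0.36 (exact permutation test, p = 0.0397, adjusted p = 0.069) did not pass, and DR passed in neither genotype (exact permutation tests, adjusted p = 0.62 in WT and 0.24 in Ercc1Δ/- mice). With Col1a1, Col1a2 and Col3a1 alone as the denominator the same 3 comparisons passed.

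**Figure D4:**
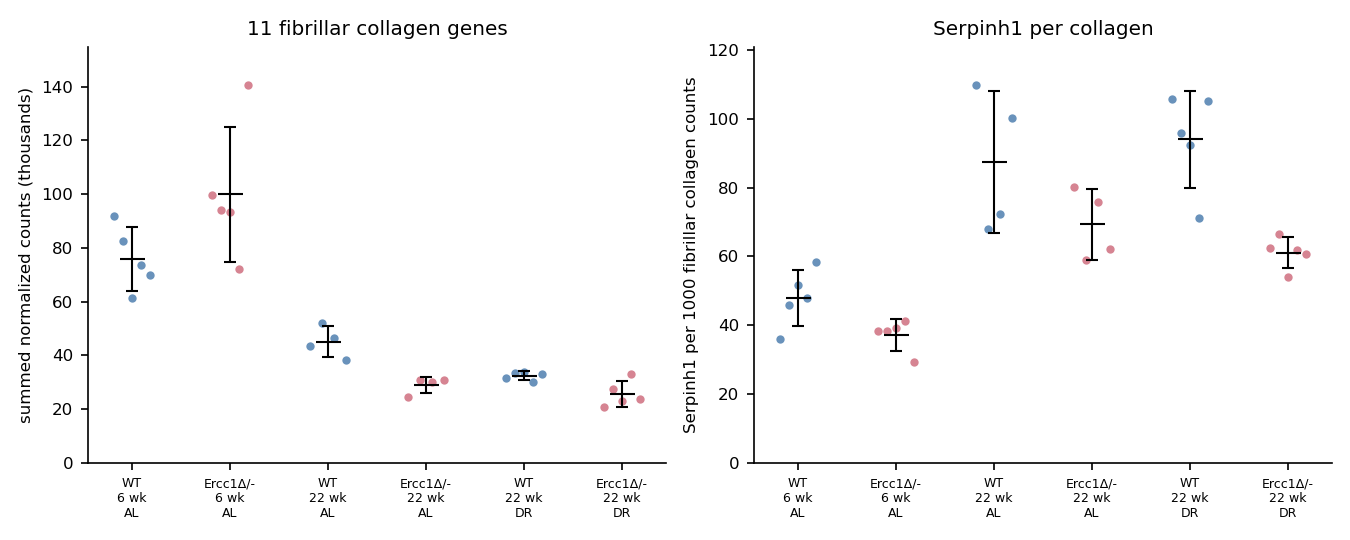
Left, summed normalized counts of 11 fibrillar collagen genes (axis in units of 1000), and right, Serpinh1 counts per 1000 of these collagen counts, in each of 28 samples (WT in blue, Ercc1Δ/- in red) with the mean and SD of each group. Collagen sums fall from 6 to 22 weeks in both genotypes, while the ratio lies at 29.2 to 58.4 at 6 weeks and at 53.9 to 109.9 in all samples of 22 weeks.

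Further genes of the pathway were counted from lists written by function. Of 15 tested genes for other steps of collagen folding, Crtap (the partner of P3h1, log2 fold change -0.29), the prolyl isomerase Fkbp9 (-0.32) and P3h4 (-0.35) were called lower between genotypes at 22 weeks on AL, and the same genes on DR (-0.42, -0.31 and -0.38), where P3h3 was added without sample 021. The median of the 15 was -0.27 on AL, and 14 of the 15 had negative values, as did 46.1% of all tested genes. At 6 weeks edgeR called 0 of the 15, with 2 at an unadjusted p under 0.05, and DESeq2 called 2. With age, 5 of the 15 were called lower in Ercc1Δ/- mice, the collagen-binding protein Sparc (-1.67, SE 0.12, edgeR adjusted p = 2.1e-08), Fkbp10 (-0.58), P3h3 (-0.38), the glycosyltransferase Colgalt1 (-0.35) and Fkbp9 (-0.31), and Sparc was the 1 called in WT mice (-1.10). DR lowered the endoplasmic reticulum chaperones Hsp90b1 (-0.40) and Pdia3 (-0.32) in WT mice, both not called without sample 021, and edgeR called 0 of 15 in Ercc1Δ/- mice, where 8 had an unadjusted p under 0.05 and DESeq2 called 1.

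Of 9 genes for procollagen export, the COPII coat gene Sec24d was called lower between genotypes at 22 weeks on AL (-0.41) and on DR (-0.40), where the transcription factor Creb3l1 (-0.58) and the channel Tmem38b (-0.35) were lower as well. With age in Ercc1Δ/- mice edgeR called 0 of the 9, with 2 at an unadjusted p under 0.05, and DESeq2 called 1. Of 9 genes for other steps of processing, 4 could be tested, and the N-propeptidase Adamts2 (-0.82, SE 0.11, edgeR adjusted p = 4.0e-05) and the second enhancer Pcolce2 (-0.37) were called lower with age in Ercc1Δ/- mice. Adamts3, Tll1 and Tll2 had too few counts and Mep1a and Mep1b had 0 counts in all 28 samples.

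Among genes for ascorbate and iron, cofactors of the hydroxylases, the calls were of iron genes and toward higher values. Of 7 tested, the iron storage genes Ftl1 (log2 fold change 0.95, SE 0.12, edgeR adjusted p = 1.6e-05) and Fth1 (0.35), the iron exporter Slc40a1 (1.24) and the transferrin receptor Tfrc (1.03) were called higher in Ercc1Δ/- mice at 22 weeks on AL, 4 of 7 where 5.88% of all tested genes were called higher. The other 3 of the 7, Slc23a2, Slc2a1 and Slc39a13, had negative values in this comparison and were not called. On DR 1 of 7 was called, Ftl1 (0.48), and with age in Ercc1Δ/- mice Ftl1 (0.88) and Fth1 (0.56) were, with a genotype by age interaction of 0.69 for Ftl1. Of 15 tested hypoxia targets, a group to which P4ha1, P4ha2 and Plod2 are often counted, edgeR called 0 lower in the 2 genotype comparisons at 22 weeks, as did DESeq2. Adm (0.56) and Ldha (0.78) were called higher on AL, where 6 had an unadjusted p under 0.05 and DESeq2 called 4, and Bnip3 (1.08) and Ndrg1 (0.36) on DR, where these numbers were 4 and 2. At 6 weeks Adm was lower in Ercc1Δ/- mice (-0.82), with age it fell in WT mice (-0.79), its genotype by age interaction was 1.38, and Ndrg1 rose in Ercc1Δ/- mice (0.84).

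Marker genes of cell types were counted in the same comparisons. Of 8 smooth muscle markers, 7 were called lower in Ercc1Δ/- mice at 22 weeks on AL (median log2 fold change -0.73), 8 on DR (median -0.60, and 7 without sample 021) and 3 at 6 weeks (median -0.37). Their summed normalized counts ran from 65760 to 101100 in Ercc1Δ/- and from 125200 to 148700 in WT samples at 22 weeks on AL, and from 92050 to 100200 and 128500 to 166300 on DR. With age in Ercc1Δ/- mice, where Serpinh1 fell by 0.86 on the log2 scale, 1 of the 8 was called lower (Cnn1, -0.46), but 8 of 8 had negative values (median -0.30), 5 had an unadjusted p under 0.05 and DESeq2 called 2. The sums ran from 90860 to 127300 at 6 weeks. The 8 fibroblast markers summed to 24250 to 32800 in Ercc1Δ/- and 25150 to 30600 in WT samples at 22 weeks on AL and their ranges overlapped in all 7 comparisons, with Pi16 called lower (-0.74) and Serping1 higher (0.71) on AL. Of 8 macrophage markers, 7 were called higher in Ercc1Δ/- mice at 22 weeks on AL, with sums of 1958 to 3627 against 859 to 1290. On DR 5 were higher between genotypes. With DR, where Pcolce was called lower in both genotypes, 4 of the 8 were called lower in Ercc1Δ/- mice (median -0.70, 6 of 8 with negative values). In WT mice 1 was (C1qb, median -0.38, 8 of 8 with negative values, and 0 called without sample 021). The macrophage sums of Ercc1Δ/- samples on DR ran from 1257 to 1636, except in sample 016, whose 4538 lay above every AL sample. Of 8 endothelial markers, 4 were called higher in Ercc1Δ/- mice on DR (Cdh5, Cldn5, Pecam1 and Tie1, median of the 8 0.61, and all but Tie1 without sample 021), with sums of 3218 to 5386 against 1627 to 3424, and 1 at 22 weeks on AL (Emcn). The remaining lists gave few edgeR calls. Of fat, Lpl was called higher in both genotype comparisons at 22 weeks and Lep lower with DR in WT mice. Between genotypes on AL, 1 of 8 fat markers had a negative value (median 0.98), and DESeq2 called 4, 1 of them lower. Fat sums there ran from 3969 to 15850 in Ercc1Δ/- and from 2690 to 4703 in WT samples. Of heart muscle, Tnnt2 was called higher in both genotype comparisons at 22 weeks. On AL, however, 5 of 6 tested heart markers had negative values (median -0.52), against 1 of 6 on DR (median 1.29). Acan of cartilage was called lower at 6 weeks and on DR, and 0 of 6 T cell markers had enough counts to be tested. The part of cell composition in the values of the members was not tested.

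Similarity in log2 CPM over the 28 samples was looked up among the 12353 tested genes without the members, so similarity between members was not examined. This is a description only, since the samples share groups and library depth. For each tested member, the most similar gene outside the set is named. For P4ha1 this was Stip1, a co-chaperone of HSP90 (Pearson r = 0.935, and 0.842 after centring within groups), which was lower in Ercc1Δ/- mice at 22 weeks on AL (log2 fold change -0.93) and on DR (-0.99) and also at 6 weeks (-0.45). The next in order for P4ha1 were Fkbp4 (r = 0.931) and Hsp90ab1 (r = 0.909), which are also part of the HSP90 machinery. For Serpinh1 it was Mettl24 (r = 0.922, and 0.695 after centring), lower on AL (-0.65) and on DR (-0.74). For P4ha2 it was the actin-binding gene Cap2 (r = 0.876, and 0.766 after centring), lower on AL (-0.68) and on DR (-0.49).

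Bmp1 was most similar to Sparc (r = 0.928, and 0.747 after centring), followed by Col1a1 (r = 0.899) and Col3a1 (r = 0.896), and P3h1 to its relative P3h3 (r = 0.893, and 0.657 after centring). Pcolce was most similar to Cd248, a surface protein of stromal cells (r = 0.822, and 0.405 after centring), which like Pcolce was called lower with DR in WT (-0.72) and in Ercc1Δ/- mice (-0.81). Plod2 was closest to Fgl2 (r = 0.907, and 0.469 after centring), Plod1 to the noncoding RNA Rian (r = 0.78, and 0.479 after centring) and Plod3 to Mfge8 (r = 0.751, and 0.647 after centring). Before centring the values of Plod1 and Plod3 were the lowest of the set, and after centring those of Pcolce and Plod2 were.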

How the data were processed

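RNA of the aortic arch from 29 mice was analysed, of which 28 samples were used. Per the labels and the methods of the study, reads carried molecular identifiers, were processed with UMI-tools 1.1.2 and fastp, aligned with STAR 2.7.10a to GRCm39 (mm39, Ensembl annotation) and counted over genes with HTSeq 2.0.2 after removal of duplicates. The kit was directional, but the strand setting of the counting is not given in the sources used here, so overlapping genes are named beside members. The authors deposited whole-number counts per gene without normalization. Lines that name no gene, 12.6% to 18.7% of a sample's reads in the table, were left out. Positions came from a later GENCODE annotation of GRCm39, and 56017 of 56748 identifiers matched a symbol. Promoter windows are RefSeq's, drawn on GRCm38.p6.

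A gene entered the test when over 10 of the 28 samples had over 10 counts each. The tests used edgeR 4.0.16 in R 4.3.3 (TMM, robust quasi-likelihood F test, group and sex as terms), once over the 18 AL samples and once over the 18 samples of 22 weeks. Called genes had an adjusted p (Benjamini-Hochberg, over all tested genes) of up to 0.05 and a log2 fold change of at least 0.263 in size. Interactions needed the adjusted p alone. Ratios were compared with two-sided exact permutation tests (scipy 1.17.1), adjusted over 7 comparisons and without a term for sex. Alternatives were RLE factors, DESeq2 1.42.0, low counts kept, sample 003 included, the sex term dropped, all 28 samples in 1 fit, thinning to 921167 counts, and each sample left out in turn. Canonical transcript lengths were added after the data were seen. The edgeR procedure was tested on simulated data. The totals limit low genes most, and counting error alone does not set the precision, since the spread between mice enters each test.

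The members and the lists of other genes were chosen with earlier results of these data known. The text names all 10 members, Ercc1, each listed pathway gene that was called, and the gene outside the set most similar to each tested member. The next genes in similarity for P4ha1 and Bmp1, and the marker genes named, were chosen after their values were seen.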

Additional observations from a re-analysis of the deposited data

Results flagged for a closer look

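In groups of 4 or 5 samples, 66 combinations of a group and a measure were examined for 1 sample standing far from the rest, and 5 were marked, where chance marks about 1 in 20. WT sample 021 on DR was marked for P4ha2, with 401 normalized counts and the next sample at 526, and for Serpinh1, with 2137 and the next at 3131. It was the lowest of its group for 9 of 9 members, while its smooth muscle markers summed to 135000 normalized counts, the median of the group. Ercc1Δ/- sample 014 on DR, the shallowest of the 28, had the highest Plod1 value of its group at 409 normalized counts. Ercc1Δ/- sample 013 of 22 weeks on AL, the shallowest of its group, had the highest Plod3 value at 561 normalized counts. Ercc1Δ/- sample 027 of 6 weeks had 29.2 Serpinh1 counts per 1000 fibrillar collagen counts, the lowest of its group, beside the highest Bmp1 value of 1639 normalized counts. Its Serpinh1 value of 4108.5 and its fibrillar collagen sum of 140730 normalized counts were also the highest of the group.

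Serpinh1 was also marked because its change with age differed between the genotypes. The interaction was -0.95 on the log2 scale (SE 0.16, edgeR adjusted p = 0.0040), with 0.10 in WT and -0.86 in Ercc1Δ/- mice, and it lay between -1.02 and -0.86 when each AL sample was left out in turn.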

How the results depend on the processing

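P4ha1 and Serpinh1 between genotypes at 22 weeks on both diets, P4ha2 on DR, Serpinh1 and Bmp1 with age in Ercc1Δ/- mice, the Serpinh1 genotype by age interaction and Pcolce with DR in Ercc1Δ/- mice stayed called under all 7 alternatives and without each sample of their comparison. The number of members called changed in 5 comparisons under the alternatives, besides those from leaving out samples. Between genotypes at 22 weeks on AL it was 2 with sample 003 added and 2 with thinned counts, without P4ha2. With age in WT mice it was 2 with DESeq2. With sample 003 added it was 2 with age in Ercc1Δ/- mice and 3 between genotypes on DR, and with counts thinned to the lowest total again 2 and 3. With DR in WT mice it was 0 without a sex term, 0 with all 28 samples in 1 fit and 0 with thinned counts. When samples were left out in turn, the number was 2 to 4 with age in Ercc1Δ/- mice, 0 to 1 with DR in WT mice, 0 to 1 with age in WT mice, 1 to 2 for genotype by age and 3 to 5 between genotypes on DR. The causes were not tested, except that thinning and leaving out a sample leave fewer counts or fewer samples.

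Log2 fold changes that changed sign were close to 0 and not called. They were those of Serpinh1 at 6 weeks with no filter on low counts (-0.0103), Plod3 with DR in WT mice with sample 003 added (0.00472), P4ha2 with DR in Ercc1Δ/- mice without a sex term (0.0091) and with thinned counts (0.00983), and P3h1 at 6 weeks with thinned counts (0.054). With samples left out in turn, the values ran between genotypes on DR from -0.073 to 0.0079 (Bmp1), at 6 weeks from -0.10 to 0.081 (P3h1), -0.067 to 0.022 (Plod1) and -0.016 to 0.11 (Serpinh1), and at 22 weeks on AL from -0.22 to 0.0099 (Plod1). With DR they ran from -0.094 to 0.028 (P4ha2, Ercc1Δ/-), -0.17 to 0.070 (Plod1, WT) and -0.083 to 0.059 (Plod3, WT), and with age from -0.0064 to 0.11 (Plod3, Ercc1Δ/-), -0.063 to 0.017 (Plod3, WT) and -0.0013 to 0.17 (Serpinh1, WT).

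The log2 difference in Serpinh1 per fibrillar collagen count was also taken with samples left out in turn. With age it ran from 0.74 to 0.97 in WT and from 0.81 to 0.97 in Ercc1Δ/- mice. Between genotypes it ran from -0.43 to -0.20 at 22 weeks on AL and from -0.46 to -0.27 at 6 weeks. The smaller groups cannot always reach the threshold. The age comparisons lost their call in 17 such runs (exact permutation tests, adjusted p = 0.067 to 0.069). Their call was kept only in WT mice without sample 001. Only without WT sample 001 did the genotype comparison at 6 weeks pass (exact permutation test, adjusted p = 0.037).

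The number of all genes called moved by over 1.5 times for 6 weeks with DESeq2 (378, against 210), for age in WT mice (106 with DESeq2, 70 without a filter and 16 thinned, against 29), for genotype by age (191 with DESeq2 and 60 thinned, against 104), and for DR in Ercc1Δ/- mice (344 with DESeq2 and 101 with sample 003, against 202). For DR in WT mice it was 307 without a filter, 99 with sample 003, 55 without a sex term, 66 with all 28 samples in 1 fit and 40 thinned, against 158. Thinning gave 674 against 1487 between genotypes on AL, 336 against 579 with age in Ercc1Δ/- mice and 912 against 1605 between genotypes on DR. For genotype by diet it was 42 with DESeq2, 39 without a filter, 3 with sample 003, 2 without a sex term, 5 with all samples and 7 thinned, against 12. With samples left out in turn, the number was 917 to 1436 between genotypes on AL, 1172 to 1603 on DR and 100 to 236 at 6 weeks, 320 to 738 with age in Ercc1Δ/- and 8 to 30 in WT mice, 54 to 135 for genotype by age and 2 to 11 for genotype by diet. With DR it was 31 (without WT sample 018) to 195 in WT mice, with 88 without sample 021, and 78 (without sample 026) to 281 in Ercc1Δ/- mice. No paired analysis was possible because each mouse gave 1 sample and the groups share no sample numbers. The WT mice were littermates, but the sample labels name no litter, so litter could not be used either.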
